A study of Mus musculus with 8 samples.

Results

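The genes described here are the ligands and receptors of the 4 classical axon guidance systems, chosen by gene name, with earlier results of these data known: every probe of the array whose gene name belongs to the Eph receptors, ephrins, semaphorins of classes 3 to 7, plexins, neuropilins, Slits, Robos, netrins or netrin receptors (*Dcc*, *Neo1* and the *Unc5* genes). The rule finds 70 genes of the 36406 gene names on the array, with 92 probes, and the brightest probe of a gene, by its mean over all arrays, stands for that gene. They were measured in E14Tg2A.4 cells, a feeder-independent line of mouse embryonic stem (ES) cells. One group of 4 arrays holds RNA of untreated ES cells, and the other group of 4 holds RNA of ES cells kept for 72 h with 1 µM all-trans retinoic acid (RA), a vitamin A derivative, in medium from which leukemia inhibitory factor (LIF) was left out. RA and the loss of LIF therefore cannot be told apart, all arrays come from the same cell line, and RNA of whole cultures was measured, so that fewer cells of a type and less RNA per cell cannot be told apart either. The arrays served the study as a record of which genes change when ES cells start to differentiate.

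Axon guidance molecules steer the tips of growing axons. Ephrins, which sit on the surface of one cell, bind Eph receptor kinases on the next, secreted and membrane-bound semaphorins bind plexins with or without a neuropilin as co-receptor, Slits repel through Robo receptors, and netrins attract through Dcc and Neogenin and repel through Unc5 receptors. The same molecules act outside the nervous system in blood vessels, epithelia and the early embryo, where they set cell boundaries and cell migration.

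Levels are given as log2 intensity relative to the 75th percentile of the array, so that a level of 0 is as bright as that percentile, and a difference of 1 is a doubling. Between 56.7% and 62.7% of the 59305 spots that are not controls were well above background per array, and none was saturated. The lowest signal that passed as well above background lay between -5.77 and -5.20 on this scale. Genes were not ranked by their levels, since a probe's brightness depends on its sequence, and for the same reason a sum over the markers of a cell type weighs each marker by the brightness of its probe.

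After RA, 31 of the 70 guidance genes rose and 10 fell, and 29 did not pass the test (limma, adjusted p under 0.05 and a change of more than 1.5-fold). The shares of 44.3% higher and 14.3% lower stand beside 13.9% higher and 22.1% lower among all gene names of the array, each by its brightest probe. The median change of the 70 genes was 0.48 on the log2 scale and that of all gene names -0.28, and the median size of the change regardless of direction was 1.30 against 0.52. With quantile normalization, which moves the median of all gene names to -0.0043, the same test called 31 guidance genes higher and 8 lower, beside 15.6% higher and 16.3% lower of all gene names. Of the 70 genes, 54 were well above background on all 8 arrays. Among the 64 whose mean level reached the mean detection floor of -5.57, 29 rose and 9 fell, where the array had 18.8% and 28.3% of such gene names.

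The direction was the same on both slides for all 41 genes that passed, each slide having carried 2 arrays of each condition. These genes were selected on the same 8 arrays, so that the agreement is largely given by the selection and is no separate support. In 30 of the 70 genes all RA arrays lay above all untreated arrays and in 9 all lay below, beside 15.3% and 25.3% of all gene names. Of the 35 ligands 16 rose and 6 fell, and of the 35 receptors 15 rose and 4 fell. Of the 41 genes that passed, 8 lack a measured fold or rest on a doubtful probe. *Robo2*, *Nrp1*, *Unc5c*, *Epha3* and *Plxnb3* were below background in a whole condition, so that their change is a lower bound on the scanner's own background correction. *Ntn4* and *Ntn5* were too dim for a fold, and *Dcc* rests on a probe of doubtful position. Among the other genes that passed, *Sema3d* and *Sema3a* were well above background on 1 of 4 untreated arrays and *Ephb1* and *Plxna4* on 2. The size of their rise therefore depends on the background correction too. With normexp background correction, in which 50 is added to every signal so that dim signals differ less, dim genes changed less, in the case of all 5 bounds by less than the bound, and the value is given where it moved by over 1.5-fold.

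**Figure D1:**
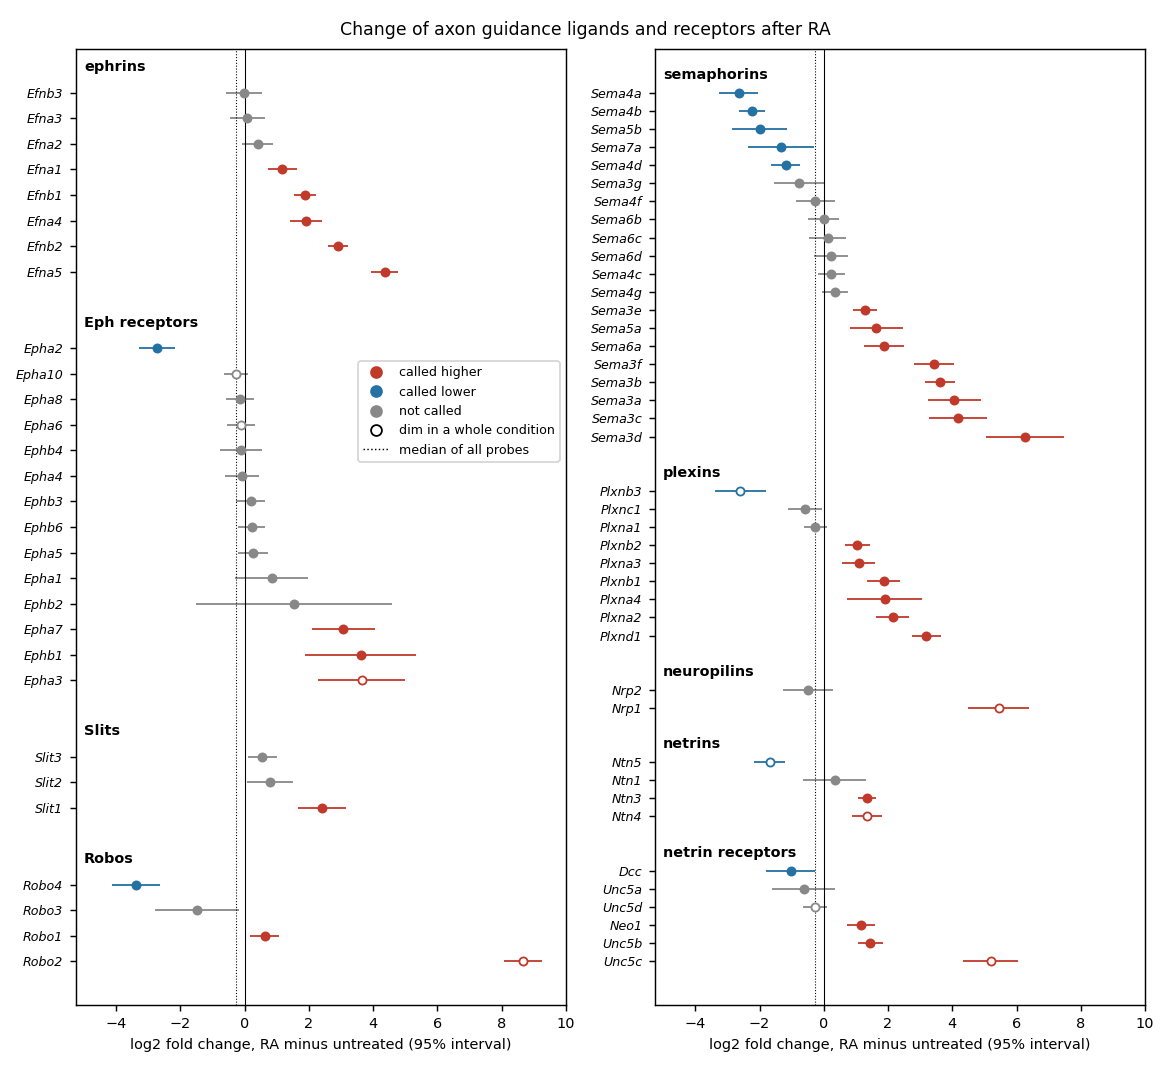
The horizontal axis gives the log2 fold change of each guidance gene, RA minus untreated, with its 95% interval from 4 arrays per condition, and the vertical axis lists the genes by family. Red points were called higher, blue lower and grey neither, open points were below background in a whole condition, and the dotted line is the median of all probes at -0.28. The open points, whose positions rest on signals below background, include *Robo2*, farthest to the right and given in the text as at least 107-fold higher, and *Robo4* lies farthest to the left at -3.38.

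Of the 8 ephrins 5 rose and 0 fell by limma, also at an unadjusted p under 0.05, and these counts stayed at 5 and 0 under every alternative run. *Efna5*, a ligand anchored in the membrane by a lipid, had levels of -1.18, -1.59, -1.15 and -1.45 on untreated replicates 1 to 4 and of 3.40, 2.96, 2.77 and 2.97 on RA replicates 1 to 4. It rose by 4.37 ± 0.18 (SE) on the log2 scale, which is 20.6-fold (adjusted p = 2.02e-06). The lowest RA array of *Efna5* lay far above the highest untreated array, and the 4 arrays within each condition lay close together.

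The promoter of *Efna5* is shown because the gene had the largest rise among the ephrins and its start lies in a stretch rich in CpG dinucleotides. The sequence is that of RefSeq on GRCm38.p6, chr17:62881268-62881567, minus strand, from 250 bases before to 50 bases after the start, with its 38 CpG in capitals.
Efna5: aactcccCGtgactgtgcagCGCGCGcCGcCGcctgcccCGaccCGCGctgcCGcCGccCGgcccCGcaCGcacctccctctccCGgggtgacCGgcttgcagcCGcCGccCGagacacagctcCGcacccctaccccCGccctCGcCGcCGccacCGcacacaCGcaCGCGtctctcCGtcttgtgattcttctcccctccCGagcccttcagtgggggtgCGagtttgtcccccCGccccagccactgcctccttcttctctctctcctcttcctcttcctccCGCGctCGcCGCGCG

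*Efnb2*, a transmembrane ephrin known from arteries and hindbrain boundaries, had levels of 0.27, -0.06, 0.35 and 0.19 in untreated cells and of 3.05, 3.00, 3.15 and 3.18 after RA. It rose by 2.91 ± 0.14 (7.50-fold, adjusted p = 3.33e-06), and the arrays of each condition spanned less than 0.5 log2 units. A dimmer probe of *Efnb2* that was well above background on 1 of 4 untreated arrays rose by 1.60, and the mean of both by 2.25. *Efna4* had -0.32, 0.72, 0.40 and 0.37 in untreated cells and 2.14, 2.08, 2.37 and 2.25 after RA, a rise of 1.92 ± 0.22 with no overlap (3.78-fold, adjusted p = 0.000194). *Efnb1*, the X-linked transmembrane ephrin, rose by 1.88 and *Efna1* by 1.18, and in both the conditions did not overlap. The 3 others, *Efna2*, *Efna3* and *Efnb3*, changed by 0.41, 0.09 and -0.02 and did not pass the test, and *Efnb3* turned to between 0.01 and 0.04 under all scalings tried. *Efna1*, *Efna3* and *Efna4* all lie on chromosome 3, and their changes ran from 0.09 to 1.92.

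Of their receptors, 3 of 14 rose and 1 fell. Beside this and the other family counts stand the 13.9% higher and 22.1% lower of all gene names, against which these small counts were not tested. *Epha7*, an A-type Eph receptor, had -2.57, -2.65, -1.85 and -2.23 in untreated cells and 0.25, -0.32, 1.44 and 1.63 after RA. It rose by 3.08 ± 0.43 (8.43-fold, adjusted p = 0.000583), a dimmer probe rose by 2.16, and one that was below background on all untreated arrays was at least 4.36-fold higher. RA replicates 3 and 4 were higher than RA replicates 1 and 2, and all 4 were above every untreated array.

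*Ephb1*, a B-type receptor, had -3.51, -5.40, -5.69 and -7.33 in untreated cells and -2.32, -2.91, -1.08 and -1.19 after RA, a rise of 3.61 ± 0.76 (adjusted p = 0.00509). It was well above background on 2 of 4 untreated arrays and all RA arrays, the untreated arrays spread over nearly 4 log2 units, and the rise was 4.27 without untreated replicate 1, 2.99 without untreated replicate 4 and 1.65 with normexp. *Epha3* had -7.49, -7.91, -6.78 and -7.49 in untreated cells, where no array was well above background, and -4.13, -5.45, -3.19 and -2.33 after RA, where all were. It was at least 3.17-fold higher (adjusted p = 0.00136), with the untreated arrays set at the detection floor, but rose by only 1.0 on the log2 scale with normexp.

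*Epha2* went the other way. This receptor kinase, known from epithelia and early embryos, had 3.96, 3.84, 4.11 and 4.02 in untreated cells and 0.91, 2.01, 1.21 and 0.94 after RA. It fell by 2.72 on the log2 scale (SE 0.25, 6.57-fold, adjusted p = 5.36e-05), and the untreated arrays lay within 0.3 of each other, well above all RA arrays. The ES cell markers on the array fell in the same comparison.

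The remaining 10 Eph receptors did not pass the test. *Epha4*, *Epha5*, *Epha8*, *Ephb3*, *Ephb4* and *Ephb6* were well above background on all 8 arrays and changed by between -0.14 and 0.26. The probes of *Ephb4* moved by -0.11 and 0.08 and those of *Ephb6* by 0.22 and -0.26, in opposite directions although all were well above background on all arrays. *Ephb4* changed by 0.03 to 0.04 under quantile normalization and in the authors' values, and *Epha4* by 0.00 there. *Epha1* changed by 0.84 (adjusted p = 0.207) and *Ephb2* by 1.55 with an SE of 1.34 (adjusted p = 0.358). The value of *Ephb2* came from untreated replicate 2 at -7.78, and without that array the change was -0.05 (adjusted p = 0.823). *Epha6* and *Epha10* were not well above background on any array.

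Semaphorins are given by class, beside the 13.9% higher and 22.1% lower of all gene names. Of the 7 class 3 semaphorins, the secreted ones that bind neuropilins, 6 rose and 0 fell by limma, with a median change of 3.61. Of the 6 class 4 semaphorins, which are membrane proteins, 0 rose and 3 fell, with a median of -0.73. At an unadjusted p under 0.05 the counts were the same, and under the alternatives run they moved only where *Sema3g* was called lower. Whether the classes differ beyond chance was not tested, since the members were grouped with earlier results known.

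*Sema3d* had the largest rise of any ligand on this scale, though not with normexp or in the authors' values, where *Efna5*, *Sema3c* and *Sema3b* rose more. Its levels were -7.23, -6.52, -4.75 and -7.15 in untreated cells, where 1 of 4 arrays was well above background, and -0.68, -0.43, -0.03 and 0.54 after RA. The rise was 6.26 ± 0.54 on the log2 scale (adjusted p = 3.92e-05), and no RA array came near an untreated one. With normexp the rise was 3.35 and in the authors' values 3.46, so that its size depends on how the dim untreated arrays are corrected.

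*Sema3c*, known for its role in the outflow tract of the heart, had -1.94, -2.23, -1.16 and -1.19 in untreated cells and 2.08, 1.77, 3.01 and 3.30 after RA. It rose by 4.17 ± 0.40 (18.0-fold, adjusted p = 6.52e-05), with a second probe at 4.67. *Sema3a*, the repellent first found as collapsin, had -5.26, -5.64, -4.19 and -5.90 in untreated cells, with 1 array well above background, and -1.36, -1.59, -1.04 and -0.77 after RA. It rose by 4.06 ± 0.37 (adjusted p = 4.93e-05), with a dimmer probe at 2.31, and by 2.09 with normexp. In both genes the conditions lay apart by more than the range within either.

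The promoters of *Sema3c* and *Sema3a* are shown because both genes rose and lie on the same chromosome while their starts differ in base composition. They are RefSeq sequences on GRCm38.p6, plus strand, over the same 300 bases around the start, with CpG in capitals. That of *Sema3c* at chr5:17574566-17574865 holds 42 CpG and 75.7% G and C, and that of *Sema3a* at chr5:13396534-13396833 holds 2 CpG and 41.3%.
Sema3c: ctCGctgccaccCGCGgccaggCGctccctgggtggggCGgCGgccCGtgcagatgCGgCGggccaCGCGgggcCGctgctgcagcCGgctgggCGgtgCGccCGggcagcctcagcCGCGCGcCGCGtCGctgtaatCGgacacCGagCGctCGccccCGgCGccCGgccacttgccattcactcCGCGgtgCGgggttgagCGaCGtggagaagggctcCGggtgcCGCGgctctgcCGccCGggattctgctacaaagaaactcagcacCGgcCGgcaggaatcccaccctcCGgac
Sema3a: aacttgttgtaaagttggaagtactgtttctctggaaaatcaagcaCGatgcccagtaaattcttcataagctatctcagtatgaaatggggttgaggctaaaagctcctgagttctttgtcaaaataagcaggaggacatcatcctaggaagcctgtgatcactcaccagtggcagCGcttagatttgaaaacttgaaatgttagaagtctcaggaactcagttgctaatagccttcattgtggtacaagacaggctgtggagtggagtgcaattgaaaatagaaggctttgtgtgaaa

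*Sema3b* rose by 3.61 ± 0.20 and *Sema3f* by 3.44 ± 0.27 (12.2-fold and 10.8-fold), both lie on chromosome 9 and neither overlapped between conditions. *Sema3e* rose by 1.27 ± 0.16. *Sema3a*, *Sema3c*, *Sema3d* and *Sema3e* all lie on chromosome 5 and all rose. *Sema3g* stayed outside, with a change of -0.76 (adjusted p = 0.119), but it passed the test at -1.03 without RA replicate 2 (adjusted p = 0.0335) and at -1.01 as the mean of its probes (adjusted p = 0.0295), of which the second was below background on all RA arrays. Outside class 3, the membrane-bound *Sema6a* rose by 1.87 ± 0.27 and *Sema5a*, which carries thrombospondin repeats, by 1.64 ± 0.37. The rise of *Sema5a* was 0.91 with normexp and did not pass against a change of 1.5-fold (adjusted p = 0.0533).

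*Sema4a* fell most among the semaphorins. It had 2.31, 1.86, 0.98 and 1.83 in untreated cells and -0.96, -1.07, -0.74 and -0.84 after RA, a change of -2.64 ± 0.27 (6.25-fold lower, adjusted p = 8.81e-05). *Sema4b* had 2.40, 2.34, 2.56 and 2.56 in untreated cells and -0.13, 0.15, 0.61 and 0.33 after RA, a change of -2.23 ± 0.18 (4.68-fold lower, adjusted p = 2.86e-05). The conditions did not overlap in either gene, and the untreated arrays of *Sema4b* lay within 0.3 log2 units.

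*Sema5b*, the relative of *Sema5a*, had -0.89, -1.0, -2.39 and -1.65 in untreated cells and -3.90, -2.76, -3.78 and -3.48 after RA. It changed by -2.00 ± 0.37 (3.99-fold lower, adjusted p = 0.00285) without overlap, its second probe by -1.79, and with normexp it changed by -1.36. *Sema4d*, which binds plexin B1, changed by -1.19 ± 0.20 with no overlap. *Sema7a*, anchored by a lipid, changed by -1.34 ± 0.45, but RA replicate 2 at -0.78 lay within the untreated range, and its call was close to the threshold (adjusted p = 0.0447). It was lost with quantile normalization (-1.27, adjusted p = 0.0727), with the slide as a block (adjusted p = 0.0597), against a change of 1.5-fold (adjusted p = 0.262), and when untreated replicate 1, 2, 3 or 4 or RA replicate 1, 3 or 4 was left out, where the change ran from -1.49 to -0.998. The 7 semaphorins that did not pass changed by between -0.76 and 0.34. They include *Sema4c*, *Sema4f* and *Sema4g* as well as *Sema6b*, *Sema6c* and *Sema6d*, and *Sema6b* turned from -0.01 to between 0.08 and 0.14 under quantile normalization and in the authors' values.

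**Figure D2:**
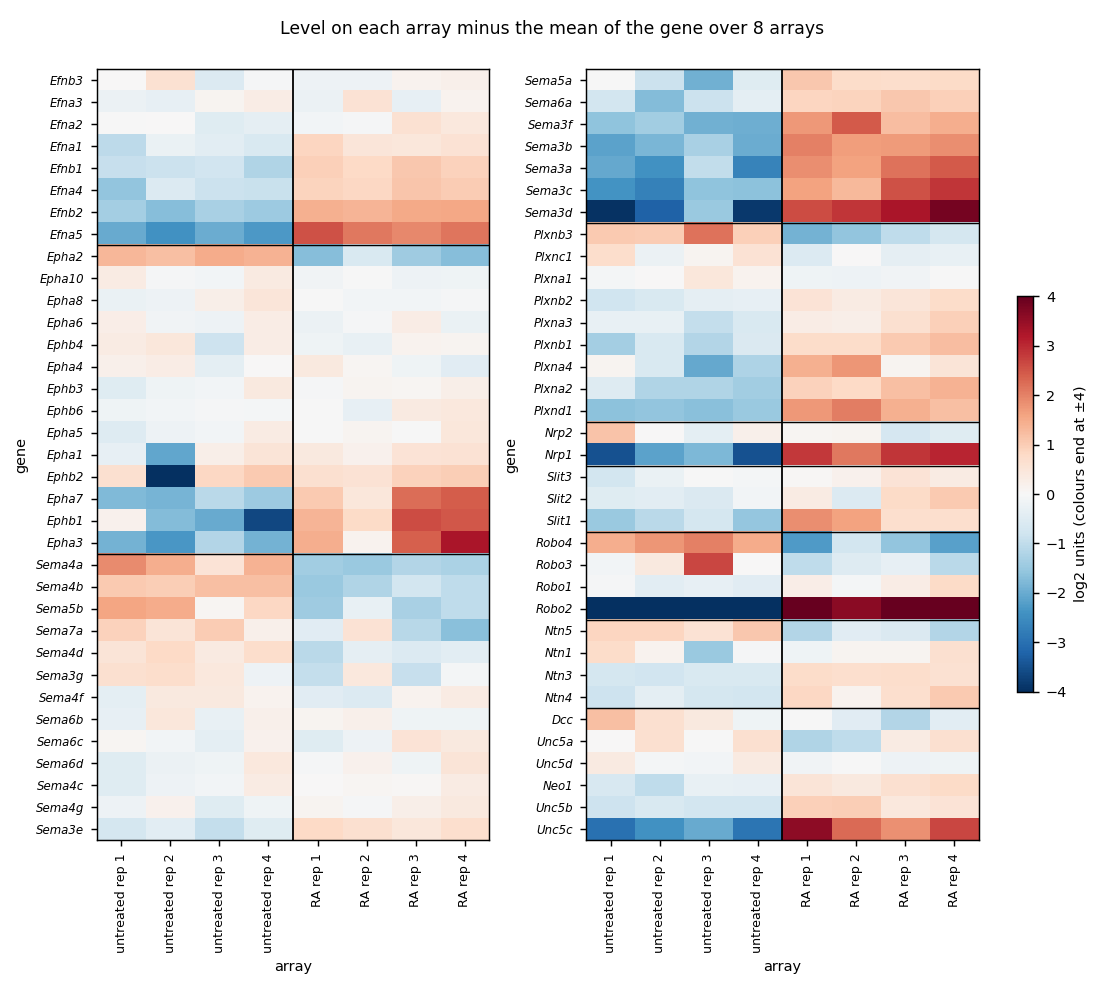
Each row is a guidance gene and each column an array, with 4 untreated arrays left of the line and 4 RA arrays right of it in each panel. Colour gives the level minus the mean of the gene over the 8 arrays in log2 units, red above and blue below, with colours ending at 4, and black lines divide the families. The class 3 semaphorins other than *Sema3g* turn from blue to red across the line, and *Ephb2* is dark on untreated replicate 2 only.

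Among the semaphorin receptors, 6 of 9 plexins rose and 1 fell. *Plxnd1*, the receptor of *Sema3e* in vessels, had -1.99, -1.95, -2.03 and -1.85 in untreated cells and 1.37, 1.68, 1.06 and 0.85 after RA. It rose by 3.20 ± 0.19 (9.16-fold, adjusted p = 7.57e-06), the untreated arrays spanned less than 0.2, and its second probe, well above background on all arrays, rose by 1.66, so that the mean of both rose by 2.43.

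*Plxna2* had -0.11, -0.80, -0.80 and -0.97 in untreated cells and 1.32, 1.20, 1.60 and 1.79 after RA, a rise of 2.15 ± 0.23 without overlap (4.44-fold, adjusted p = 0.000112). *Plxna4* had -4.22, -4.94, -6.38 and -5.58 in untreated cells, with 2 arrays well above background, and -2.92, -2.57, -4.23 and -3.83 after RA. It rose by 1.89 ± 0.51 (adjusted p = 0.0179), but RA replicate 3 lay just below untreated replicate 1, its other probe, dim on all arrays, changed by -0.28, and the rise was 0.62 with normexp and 0.80 as the mean of both probes, where it did not pass (adjusted p = 0.0629). *Plxnb1*, *Plxna3* and *Plxnb2* rose by 1.86, 1.08 and 1.04, all without overlap. Tested against a change of 1.5-fold in place of none, *Plxna3* (adjusted p = 0.128), *Plxna4* (adjusted p = 0.0833) and *Plxnb2* (adjusted p = 0.0608) did not pass.

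*Plxnb3*, of the same B class, went the other way. Untreated cells had -4.39, -4.44, -3.27 and -4.49, all well above background, and RA-treated cells had -7.34, -7.02, -6.46 and -6.16, none of which was. It was at least 2.92-fold lower (adjusted p = 0.00044), but changed by only -0.84 on the log2 scale with normexp and by -0.58 in the authors' values. *Plxna1* and *Plxnc1* changed by -0.26 and -0.58 and did not pass, and *Plxnc1* passed at -0.75 without untreated replicate 2 (adjusted p = 0.0251).

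The neuropilins, co-receptors of class 3 semaphorins that also bind VEGF, differed. *Nrp1* had -7.42, -6.06, -5.72 and -7.40 in untreated cells, below background on all 4 arrays, and -1.10, -1.82, -1.06 and -0.87 after RA, above it on all 4. It was at least 18.7-fold higher (adjusted p = 2.44e-05), and rose by 2.57 on the log2 scale with normexp. *Nrp2* was bright in both conditions, with 4.94, 3.80, 3.38 and 3.99 in untreated cells and 3.85, 3.90, 3.11 and 3.30 after RA. Its change of -0.49 was within the spread (adjusted p = 0.257). The second probe of *Nrp2* changed by -0.57, with overlap between conditions, and did not pass either (adjusted p = 0.0862).

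**Figure D3:**
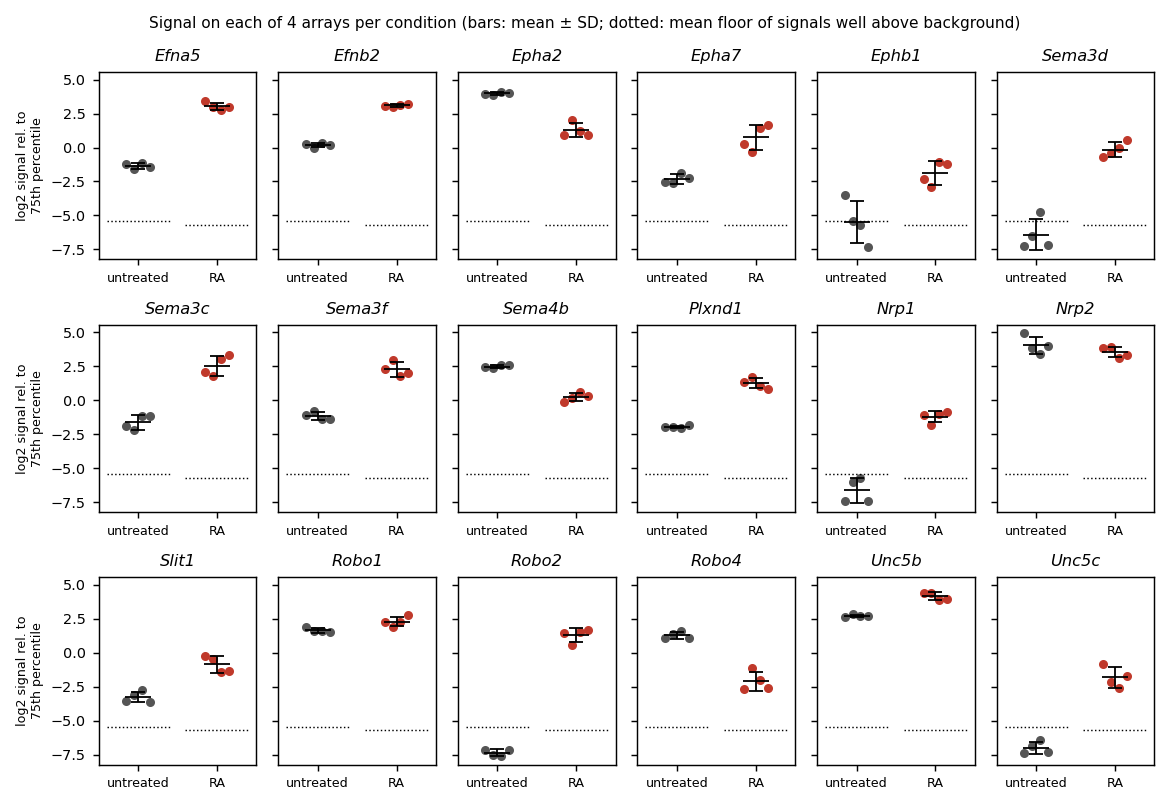
Each panel shows a guidance gene with its level on 4 untreated arrays (grey) and 4 RA arrays (red) as log2 intensity over that of the array's 75th percentile, bars giving the mean and SD and dotted lines the mean floor of signals well above background. *Robo2*, *Nrp1* and *Unc5c* start below the floor in untreated cells and lie above it on all RA arrays, while *Epha2*, *Sema4b* and *Robo4* fall.

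Slits and Robos held both the largest rise and the largest fall of all 70 genes. *Robo2* had -7.15, -7.53, -7.61 and -7.13 in untreated cells, below background on all arrays, and 1.46, 0.60, 1.51 and 1.67 after RA. It was at least 107-fold higher (adjusted p = 7.88e-07), with the untreated arrays set at the detection floor. A second probe, below background on the same 4 arrays, was at least 53.4-fold higher. With normexp the rise was 4.85, still the largest of the 70 genes.

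The *Robo2* probes read different stretches of the transcript at chr16:73894653-73894712 and chr16:73897261-73897318 on mm9. The first 30 bases of each are shown because both gave a bound in the same direction.
Robo2 brighter probe: caaatctgtttgacccattttgaatgagta
Robo2 second probe: gccaatgaccttctcgacattggatatgtg

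*Robo4*, the Robo known from endothelium, had 1.06, 1.37, 1.62 and 1.09 in untreated cells and -2.67, -1.14, -1.99 and -2.58 after RA. It changed by -3.38 ± 0.33 (10.4-fold lower, adjusted p = 7.81e-05), and the conditions lay more than 2 log2 units apart. Of the 10 endothelial markers 5 fell as well, beside 22.1% lower among all gene names. These were *Pecam1* by 2.96, *Tek* by 2.90, *Eng* by 1.41, *Cldn5* by 1.04 and *Esam* by 0.67 on the log2 scale. *Kdr* and *Tie1*, well above background on all 8 arrays, changed by -0.05 and -0.62 without passing, and *Cdh5*, *Emcn* and *Erg* were below background on all 8 arrays. The part of endothelial cells in the fall of *Robo4* was not tested. The promoter of *Robo4* is shown as that of the gene that fell most, from RefSeq on GRCm38.p6, chr9:37401722-37402021, plus strand, with its 2 CpG in capitals.
Robo4: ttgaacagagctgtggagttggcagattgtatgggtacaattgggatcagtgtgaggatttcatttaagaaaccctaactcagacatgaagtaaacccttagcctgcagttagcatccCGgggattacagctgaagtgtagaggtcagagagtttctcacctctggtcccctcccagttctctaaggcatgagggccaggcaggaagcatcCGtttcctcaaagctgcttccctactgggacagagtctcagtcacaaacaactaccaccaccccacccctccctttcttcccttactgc

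*Robo3* lies beside *Robo4* on chromosome 9. It had -3.51, -2.99, -0.73 and -3.39 in untreated cells and -4.40, -3.91, -3.72 and -4.48 after RA. The conditions did not overlap, but untreated replicate 3 stood far above the others, and the change of -1.47 ± 0.57 missed the threshold (adjusted p = 0.0743). Without that array it was -0.83 and passed (adjusted p = 0.0284), and with same-numbered replicates as a block it passed at -1.47 (adjusted p = 0.0272), as it did with normexp at -1.07 (adjusted p = 0.0309) and with the filter on dim probes at -1.47 (adjusted p = 0.0469).

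*Robo1*, which lies on the same chromosome as *Robo2*, had 1.92, 1.57, 1.64 and 1.53 in untreated cells and 2.25, 1.90, 2.28 and 2.75 after RA. Its rise of 0.63 ± 0.20 just passed (1.55-fold, adjusted p = 0.0342), RA replicate 2 lay below untreated replicate 1, and the call was lost with the replicate block (adjusted p = 0.0631), at a fold limit of 2, against a change of 1.5-fold (adjusted p = 0.993) and on leaving out untreated replicate 2, 3 or 4 or RA replicate 1, 3 or 4, where the change ran from 0.48 to 0.65. Of the ligands, *Slit1* had -3.55, -3.13, -2.76 and -3.61 in untreated cells and -0.21, -0.44, -1.39 and -1.38 after RA, a rise of 2.41 ± 0.33 without overlap (5.30-fold, adjusted p = 0.000461) that was 1.79 with normexp. *Slit2* and *Slit3* changed by 0.79 and 0.56 and did not pass (adjusted p = 0.0827 and 0.0581). *Slit2* passed at 1.10 without RA replicate 2 (adjusted p = 0.00593) and at 0.67 with normexp (adjusted p = 0.0405), and *Slit3* at 0.64 without untreated replicate 3 (adjusted p = 0.0453).

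Of the 4 netrins 2 rose and 1 fell, but *Ntn3* alone did so at levels above background in both conditions. This secreted netrin had -0.67, -0.75, -0.59 and -0.59 in untreated cells and 0.75, 0.70, 0.71 and 0.62 after RA. It rose by 1.34 ± 0.12 (2.54-fold, adjusted p = 5.32e-05), with each condition within 0.2. *Ntn1*, the founding netrin of the floor plate, changed by 0.34 (adjusted p = 0.53), and by -0.10 without untreated replicate 3, so that no direction can be given.

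*Ntn4* and *Ntn5* passed the test at levels that do not allow a fold. *Ntn4* had -7.35, -6.92, -7.24 and -7.27 in untreated cells and -5.69, -6.37, -5.86 and -5.49 after RA, with 1 RA array and 0 untreated arrays well above background. *Ntn5* had -5.83, -5.82, -6.12 and -5.60 in untreated cells and -7.86, -7.15, -7.26 and -7.86 after RA, none well above background. With normexp background correction and quantile normalization their changes were 0.32 and -0.18, with normexp alone 0.10 and -0.41 and in the authors' values 0.31 and -0.17, all under 1.5-fold.

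Of the 6 netrin receptors, 3 rose and 1 fell. *Unc5c* had -7.40, -6.83, -6.43 and -7.33 in untreated cells, all below background, and -0.82, -2.13, -2.57 and -1.73 after RA, all above it. It was at least 12.3-fold higher (adjusted p = 1.82e-05), though with normexp it rose by 2.11 on the log2 scale, and its second probe, also below background in untreated cells, was at least 7.38-fold higher. *Unc5c* and *Unc5b* are receptors through which netrins repel.

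*Unc5b* had 2.61, 2.83, 2.69 and 2.72 in untreated cells and 4.39, 4.44, 3.85 and 3.98 after RA, a rise of 1.45 ± 0.17 (2.73-fold, adjusted p = 0.000223). *Neo1*, which encodes Neogenin, the relative of Dcc that also binds RGM proteins, had 0.08, -0.28, 0.42 and 0.39 in untreated cells and 1.24, 1.12, 1.36 and 1.49 after RA, a rise of 1.15 ± 0.19 (2.22-fold, adjusted p = 0.00144). Neither gene overlapped between conditions. *Unc5a* changed by -0.63 (adjusted p = 0.249), and *Unc5d* was not well above background on any array.

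*Dcc*, the attractive netrin receptor, cannot be given a direction. Its brightest probe had 7.61, 7.06, 6.81 and 6.24 in untreated cells and 6.41, 5.96, 5.25 and 5.98 after RA, with overlap, a change of -1.04 ± 0.33 (adjusted p = 0.0359). The file places this probe at chr7:68417162-68417221 on mm9, whereas RefSeq has *Dcc* on chromosome 18, and it is the only one of the 92 probes that does not lie on its gene's chromosome. The other *Dcc* probes, on chromosome 18 and well above background on 2 untreated and 4 RA arrays, changed by 1.69 and 1.71 without passing (adjusted p = 0.146 and 0.157). The call was also lost under quantile normalization (-0.78, adjusted p = 0.109) without or with normexp (-0.80, adjusted p = 0.075), in the authors' values (-0.81, adjusted p = 0.075), against a change of 1.5-fold (adjusted p = 0.371) and on leaving out untreated replicate 1, 2 or 3 or RA replicate 2, 3 or 4, where the change ran from -1.08 to -0.81. Without *Dcc*, *Ntn4* and *Ntn5*, 30 guidance genes rose and 8 fell, a count added after the values had been seen.

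**Figure D4:**
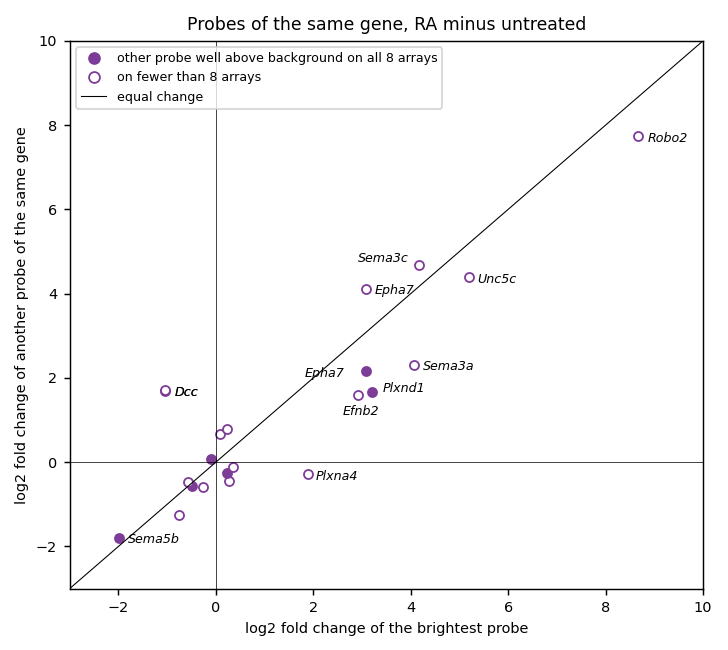
Each point is a probe of a guidance gene that has more than 1 probe, with the log2 fold change of the gene's brightest probe on the horizontal axis and that of the other probe on the vertical axis. Filled points were well above background on all 8 arrays, and the line marks equal change. The *Dcc* probes lie across the zero line from the brightest one, and the other named genes except *Plxna4* keep their direction.

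Of the 20 guidance genes with more than 1 probe, probes of 6 had opposite signs, and in 0 were opposite directions both called. Beside *Dcc*, *Plxna4*, *Ephb4* and *Ephb6*, these were *Epha5*, where the other probe was dim on all arrays, and *Ntn1*. *Robo2*, *Unc5c*, *Sema3a*, *Sema3c*, *Epha7*, *Plxnd1*, *Efnb2* and *Sema5b* passed with every probe.

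Read by ligand and receptor, each system had members that rose on both sides: *Efna5* and *Efnb2* with *Epha3*, *Epha7* and *Ephb1*, class 3 semaphorins with *Nrp1* and *Plxnd1*, *Slit1* with *Robo2*, and *Ntn3* with *Unc5b* and *Unc5c*. Members that fell were found among Eph receptors (*Epha2*), semaphorins (*Sema4a*, *Sema4b*, *Sema4d*, *Sema5b*, *Sema7a*), plexins (*Plxnb3*) and Robos (*Robo4*), and *Ntn5* and *Dcc* were called lower with the limits given above. RNA of whole cultures does not show whether a ligand and its receptor were made by the same cells.

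Promoters of guidance genes were read from RefSeq (GRCm38.p6), where 60 of the 70 genes had 76 promoters of 300 bases. They held a median of 19.5 CpG against 7 in all 32851 promoters, and 57.9% against 33.3% were CpG-rich, with a ratio of observed to chance CpG above 0.6 and more than 50% G and C. By gene, 17 of 26 that rose, 3 of 9 that fell and 19 of 25 that did not pass had a CpG-rich promoter, beside 35.8% of all genes. *Sema4b*, *Sema5b* and *Sema7a* were the CpG-rich ones among those that fell, and *Robo4*, *Epha2*, *Sema4a* and *Sema4d* were among the others. These counts are a description of few genes and were not tested.

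The hexamer AGGTCA, which retinoic acid receptors bind as a repeat, was searched on both strands. It was in 14.5% of the guidance promoters and in 16.3% of all. The 11 promoters that hold it were 5 of 31 from genes that rose (*Nrp1*, *Ntn4*, *Plxnb2*, *Plxnd1* and *Sema5a*), 5 of 15 from genes that fell (*Epha2*, *Ntn5*, *Robo4*, *Sema4b* and *Sema4d*) and 1 of 30 from genes that did not pass (*Sema6b*), counts too small to read an order from and not tested. A TATAAA box was in 2.63% of guidance promoters, those of *Slit2* and *Efnb2*, and in 13.6% of all. A window of 300 bases says nothing of elements farther away.

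Other parts of the pathway were read from 2 lists. Of 28 further guidance cues and surface partners, 15 rose and 1 fell, beside the 13.9% higher and 22.1% lower of all gene names. *Cxcl12*, a chemokine that guides migrating neurons and germ cells, had -3.10, -2.79, -4.88 and -2.25 in untreated cells and 2.13, 2.48, 1.30 and 0.84 after RA, a rise of 4.94 ± 0.58 (adjusted p = 0.0002) that was 4.06 with normexp. *Flrt3*, a ligand of Unc5 receptors and partner of Robo1, rose by 4.04 ± 0.18 and the syndecan *Sdc3* by 3.32 ± 0.28 (2.43 with normexp), neither with overlap. *Cntn2*, a contactin of axons, was the gene called lower, but the call depends on the processing. It was well above background on all untreated arrays and on no RA array and at least 1.74-fold lower (adjusted p = 0.00135), while its change was -0.38 on the log2 scale with normexp and -0.14 in the authors' values (adjusted p = 0.126).

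Of 59 proteins that act inside the cell downstream of guidance receptors, 24 rose and 10 fell, beside the same 13.9% and 22.1%, so that the share that fell was not above that of the array. *Farp1*, an exchange factor for small GTPases, rose by 4.42 ± 0.22, and *Dpysl2*, the collapsin response mediator CRMP2, by 3.61 ± 0.18. *Dcx*, the microtubule protein of migrating neurons, was below background in all untreated arrays and at least 5.78-fold higher, and rose by 1.39 on the log2 scale with normexp. *Trim67*, a ubiquitin ligase that binds Dcc, had 0.85, 0.98, 0.07 and 0.71 in untreated cells and -5.99, -4.33, -7.75 and -6.78 after RA, a change of -6.86 ± 0.63 (adjusted p = 5.58e-05), which was -7.49 without RA replicate 2, the single RA array well above background, -4.05 with normexp and -3.83 as the mean of its probes. *Ssh1*, a cofilin phosphatase, changed by -2.52 ± 0.28 and *Tiam1*, a Rac exchange factor, by -1.85 ± 0.15.

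The cell type markers that moved in the same comparison are given beside these results. Their counts stand beside the 13.9% higher and 22.1% lower of all gene names. All 10 ES cell markers fell, their summed level on a linear scale going from between 325 and 456 in untreated cells to between 22.9 and 47.7 after RA. Markers of primitive and parietal endoderm rose in 10 of 10, their sum going from between 101 and 149 to between 280 and 323. Most of that sum was the bright *Sparc* (rise of 1.10), while *Foxa2*, *Dab2*, *Col4a1*, *Gata6* and *Sox17* rose by between 3.05 and 5.03 on the log2 scale. Markers of mesoderm and smooth muscle rose in 7 of 10 and fell in 1, from between 5.78 and 9.12 to between 317 and 568. Those that rose were the muscle genes *Tagln*, *Acta2*, *Myl9*, *Cnn1*, *Actc1* and *Des*, the first 3 of which made up most of the sum after RA, and *Hand1*, a regulator of lateral and extraembryonic mesoderm, by 4.35. The early mesoderm genes *T* and *Tbx6* changed by -0.78 and -0.28 without passing, and *Mixl1*, the one called lower, was below background on all arrays. Neural progenitor markers rose in 3 of 10 and fell in 1, from between 8.64 and 14.2 to between 82.8 and 115, and most of the sum after RA was *Vim* (rise of 3.98). *Nes* and *Fabp7* rose too, *Notch1* fell, and *Pax6*, *Sox1*, *Sox3*, *Hes5*, *Msi1* and *Pou3f2* did not pass. Neuron markers rose in 2 of 9 (*Gap43* and *Dcx*) and fell in 5 (*Tubb3*, *Stmn2*, *Elavl3*, *Rbfox3* and *Syp*), from between 17.9 and 29.5 to between 10.1 and 22.1, so that the untreated and RA ranges overlapped, and most of the sum after RA was *Gap43*. Endothelial markers rose in 0 of 10, also at an unadjusted p under 0.05, and fell in 5, from between 4.20 and 6.92 to between 2.51 and 3.42. The part of these cell types in the change of the guidance genes was not tested.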

How the data were processed

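RNA from 8 cultures of E14Tg2A.4 ES cells, 4 untreated and 4 treated with RA, was hybridized to 1-colour Agilent mouse arrays. For each array the authors deposited a file written by Agilent Feature Extraction (version 10.7.3.1), whose processed intensity per spot is corrected for background but not scaled between arrays, with flags of 0 or 1 that mark a spot as saturated, as an outlier or as well above background. A table of log2 values of the same arrays with equal medians (6.89) was deposited too, whose background correction and normalization are not given in the sources used here. The ChIP-seq data of the study were not used here.

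In R (version 4.3.3) the log2 processed intensity minus the 75th percentile of each array was taken. Control spots (3671) and outlier spots (124 to 145 per array) were left out, and repeated spots were averaged to 55681 probes. The brightest probe by its mean over all arrays stands for a gene. Probe positions are those of the scanner files (mm9). RA was tested against untreated in limma (version 3.58.1) by lmFit and eBayes, with Benjamini-Hochberg adjustment over all probes. A gene was called at an adjusted p under 0.05 and a change above 1.5-fold. Where no array of a condition was well above background, each of its arrays was set at the higher of its own signal and the lowest well above background, and the fold is given as a lower bound. Sequences and promoters were read with Python (version 3.11.15). The number of arrays limits the precision.

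Genes were named by a rule: in each family the 3 called genes with the largest rise and the 3 with the largest fall get their value on every array, all others are accounted for by ranges or counts, and of the 2 further lists up to 3 in each direction are named. *Nrp2*, *Robo3* and the values of single probes were added with their values known. The members and lists were chosen with earlier results of these data known. Of the further lists, 28 of 29 and 59 of 61 names were on the array, and 9 of 10 neuron markers were.

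Replicates carry the numbers 1 to 4 in the labels of each condition. Over 27508 probes well above background on all arrays, deviations from the condition means of same-numbered arrays correlated at 0.187, 0.189, 0.104 and 0.152. The highest value between different numbers was 0.142, above that of number 3. Arrays of number 1 shared a slide, as did those of number 2, so that number and slide are not fully told apart. Whether same-numbered cultures are pairs is not settled, and the replicate block, which treats them as pairs, was run as an alternative only. The steps were tested on simulated data. Alternatives were the scaling, the background correction, the authors' values, a filter on dim probes, the slide or the replicate number as a block, other thresholds, the mean of all probes of a gene, and leaving out each array.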

Additional observations from a re-analysis of the deposited data

Results flagged for a closer look

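In 3 of 140 groups of 4 arrays, a single array of a guidance gene stood apart from the other 3 of its condition, by a gap test that marks about 1 in 20 groups by chance, or 7 here. *Ephb2* on untreated replicate 2 was at -7.78, where the others lay between -1.57 and -1.15. Of the 22 spots around it on that array, within 2 rows and 4 columns that the remaining untreated arrays showed well above background, 50% lay more than 2 log2 units from the mean of those arrays, against 0.276% over the whole array, and the part of this in the value was not tested. *Ephb4* on untreated replicate 3 was at 1.70, with the others between 2.84 and 2.98. *Plxnb3* on untreated replicate 3 was at -3.27, with the others between -4.49 and -4.39. Around the spots of *Ephb4* and *Plxnb3* on those arrays, 0 of 22 and 0 of 20 spots were displaced.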

How the results depend on the processing

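Under the alternatives run, guidance genes called higher numbered 26 to 32 and lower 8 to 11, and on leaving out each array in turn 30 to 32 and 8 to 10. The lowest count of 26 came from testing against a 1.5-fold change. Of the 41 called genes, 32 kept their call throughout, and *Dcc*, *Ntn4*, *Ntn5*, *Plxna3*, *Plxna4*, *Plxnb2*, *Robo1*, *Sema5a* and *Sema7a* lost it in some setting. With the replicate block, 30 were higher and 11 lower, and among guidance genes it changed the calls of *Robo1* and *Robo3* and no other. *Dcc* reversed to 0.79 (adjusted p = 0.28) with the mean of its probes, which takes in both probes on chromosome 18. Further cues called lower numbered 1, which was *Cntn2*, or *Nfasc* in its place with normexp alone, and were 0 with normexp and quantile normalization, in the authors' values, at a fold limit of 2 and in the test against 1.5-fold, and 2, *Cntn2* and *Nfasc*, with the filter on dim probes. On leaving out each array they numbered 1 to 2, with both without RA replicate 3 or RA replicate 4. The cause was not tested. Across all probes, calls were 7196 higher and 12044 lower, and 8152 and 8704 with quantile normalization. Signal over background limits the 5 genes given as bounds and the 4 dim on all arrays. It also limits *Sema3d*, *Sema3a*, *Ephb1* and *Plxna4*, which were well above background on only some untreated arrays.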
